A study of Homo sapiens with 9 samples.

Results

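The comparison set 2 short hairpin RNAs against EZH2, shEZH2#1 and shEZH2#3, against each other in KYSE180 cells. This established human line is labelled esophageal squamous cell carcinoma, and the series title calls it KDM6A-deficient. It used the 6 of 9 libraries whose titles name one of these hairpins, 3 for each, and covered 13252 tested genes of 57905 in the count table. The other 3 libraries carried a luciferase control hairpin (shluc) and served as the reference level. The cells of all 9 libraries had been irradiated at 6 Gy, and no unirradiated sample was analysed here. The titles speak of hairpins, whereas a genotype label calls the EZH2 libraries knockout and the control wild type. Whether replicates came from separate cultures, and how many cell clones stand behind a hairpin, is not given in the labels. The p-values therefore cover the spread among the libraries alone, and that spread may be technical.

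EZH2 is the methyltransferase of Polycomb repressive complex 2, which needs the partner subunits EED and SUZ12 and places a repressive methyl mark on histone H3 at developmental genes. A short hairpin RNA is cut by DICER1 into a small RNA that guides Argonaute proteins to matching messages, and the seed of such a guide can also pair with other messages. Hairpins of different sequence against the same gene are therefore often used side by side. The hairpin sequences were in none of the files used here.

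EZH2 (ENSG00000106462, chromosome 7, 148807383 to 148884321, GRCh38) was below the control with both hairpins, and its difference between them did not pass the test. It stood at 11.5, 11.3 and 7.27 CPM with shEZH2#1, 9.66, 11 and 9.11 with shEZH2#3 and 18.4, 20.1 and 19.5 in shluc, in CPM, counts relative to the TMM-scaled total of each library. The hairpin groups overlapped, and all 6 hairpin libraries lay below the controls. The log2 difference, shEZH2#1 minus shEZH2#3 here and throughout, was 0.02 ± 0.19 (approximate standard error), with an adjusted p of 0.943 in edgeR's quasi-likelihood test. Its sign turned with an offset for GC content and length (-0.18) and when single libraries were left out, and no such value passed the test. SUZ12 had 0.34 ± 0.30 (adjusted p = 0.434). EED was measured at 22.4, 21.5 and 11.6 CPM with shEZH2#1, 12.6, 9.66 and 14.6 with shEZH2#3 and 21.2, 23 and 22.3 in shluc; shEZH2#1 replicate 3 lay within the shEZH2#3 range. EED was called higher with shEZH2#1 (log2 difference 0.60 ± 0.21, adjusted p = 0.0463), a call lost with the GC and length offset (adjusted p = 0.124), with limma-voom, in a fit of the 6 hairpin libraries alone and without either of shEZH2#1 replicates 1 and 2, shEZH2#3 replicates 1 and 2 or shluc replicates 1 and 2. EED was the 1 called member among 11 PRC2 subunit genes tested, beside 25% called of all tested genes, and their median log2 difference was 0.03, beside 0.01 over all tested genes (none called higher and 2 lower with the offset).

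Of the 13 tested genes of the RNA interference machinery, 2 were called higher with shEZH2#1 and none lower, with a median of 0.38 (4 and none with the offset described below). The called share was 15.4%, beside 25% of all tested genes. A single member was called without any 1 of shEZH2#1 replicates 1, 2 or 3, shEZH2#3 replicates 1 or 2 or shluc replicate 1, and with limma-voom, and 5 with upper quartile scaling. The called members were AGO4, an Argonaute protein (3.9 against 1.82 CPM, log2 difference 1.10 ± 0.27), and DICER1 (4.66 against 2.6 CPM, 0.83 ± 0.29, adjusted p = 0.0396), both outside the naming rule for their low level. DICER1 had 0.53 with the GC and length offset (adjusted p = 0.0784).

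Away from the target, the hairpins differed widely. Of 13252 genes, 3311 (25% of those tested) passed an adjusted p of 0.05 (Benjamini-Hochberg) and are termed called, 1254 (9.46%) higher and 2057 (15.5%) lower with shEZH2#1. The libraries of the hairpins did not overlap in 5689 genes (42.9%), and this held for 3207 of the 3311 called genes. The median called gene differed 1.69-fold. At least 2-fold differences were called in 336 genes higher and 582 lower, and at least 4-fold in 40 and 70. When a fold of 2 was itself the null value tested, 68 genes were called, 7 higher and 61 lower.

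**Figure D1:**
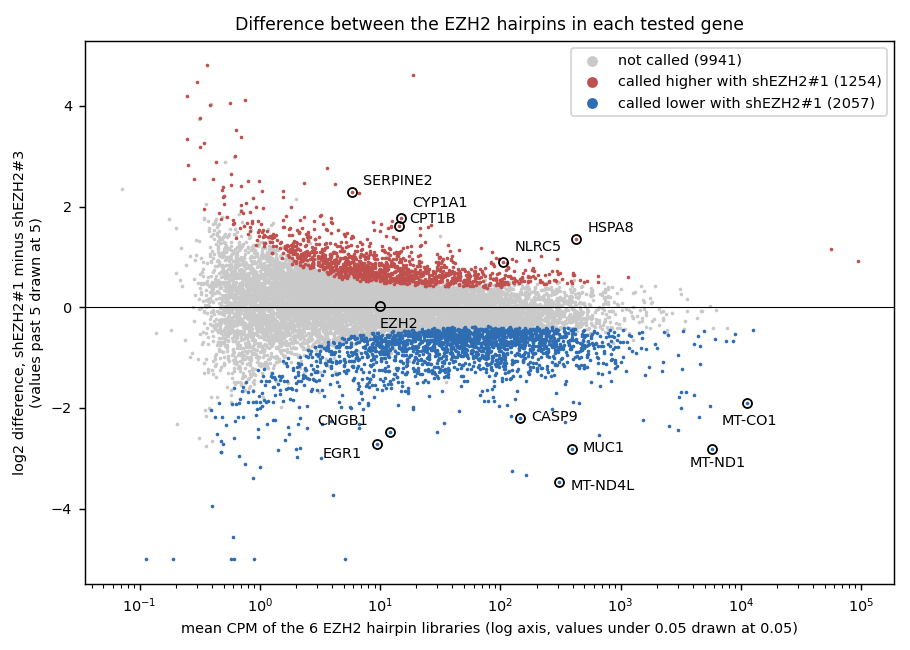
Log2 difference between the hairpins (vertical axis, shEZH2#1 minus shEZH2#3) against the mean CPM of the 6 EZH2 hairpin libraries (horizontal log axis) for each of 13252 tested genes; red and blue points were called higher (1254) and lower (2057). EZH2 lies near 0, mitochondrially encoded genes and MUC1 lie far below, and SERPINE2, CYP1A1, CPT1B and HSPA8 lie above.

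The level of the luciferase control is given beside these differences. Among the 2057 genes called lower with shEZH2#1, the mean of shluc lay between the hairpin means in 1196 (58.1%, against 26.3% of all tested genes), below both in 750 and above both in 111. Among the 1254 called higher, shluc was above both hairpins in 608 (48.5%, against 40.1% of all), between them in 454 and below both in 192. Called genes were selected for hairpin means that lie apart, so a control mean falls between them more often by construction. The shares over all tested genes are therefore no reference for those of called genes, and nothing is concluded from the contrast. Either hairpin against shluc shares those 3 control libraries, so the comparisons are not independent; 2523 genes (19%) were called with shEZH2#1 and 5861 (44.2%) with shEZH2#3.

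Libraries differed in make-up between the hairpins. Totals were 14958011 to 16946226 estimated counts with shEZH2#1 and 18366510 to 21152006 with shEZH2#3, beside 18563879 to 19508444 in shluc. A pair of very abundant genes without a symbol, ENSG00000266658 and ENSG00000272060, took 15.8 to 22.6% of counts with shEZH2#1, 5.97 to 11.6% with shEZH2#3 and 6.96 to 9.28% in shluc. The groups did not overlap in this share (exact two-sided permutation test over libraries, p = 0.1, the smallest that 3 against 3 allows). Leaving these genes and the mitochondrial ones out of the totals gave 3296 called genes, 1392 higher and 1904 lower.

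The difference between the hairpins varied with the base composition of transcripts. Its rank correlation with GC content was -0.41 over 12949 genes, and with transcript length 0.12; genes of a library share its composition and depth and are not replicates. Genes were ordered by GC content and cut into 10 equal bins. In bin 1 (median GC content 37.5%) the median log2 difference was 0.33, with 11.8% of its genes called higher and 1.39% lower. In bin 9 (median 60.8%) the median was -0.26, with 5.1% called higher and 30% lower. Library by library, the rank correlation of a gene's level relative to all 9 libraries with GC content was 0.37 to 0.64 with shEZH2#3, -0.25 to 0.25 with shEZH2#1 and -0.69 to -0.39 in shluc. With a smooth of each library on GC content and length as an offset, 3737 genes (28.2%) were called, 1676 (12.6%) higher and 2061 (15.6%) lower, of which 2555 were calls of the fit without offset in the same direction. That offset ended 756 calls and added 1182, and no gene was called in opposite directions. Counts with the offset are therefore printed beside each gene list.

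**Figure D2:**
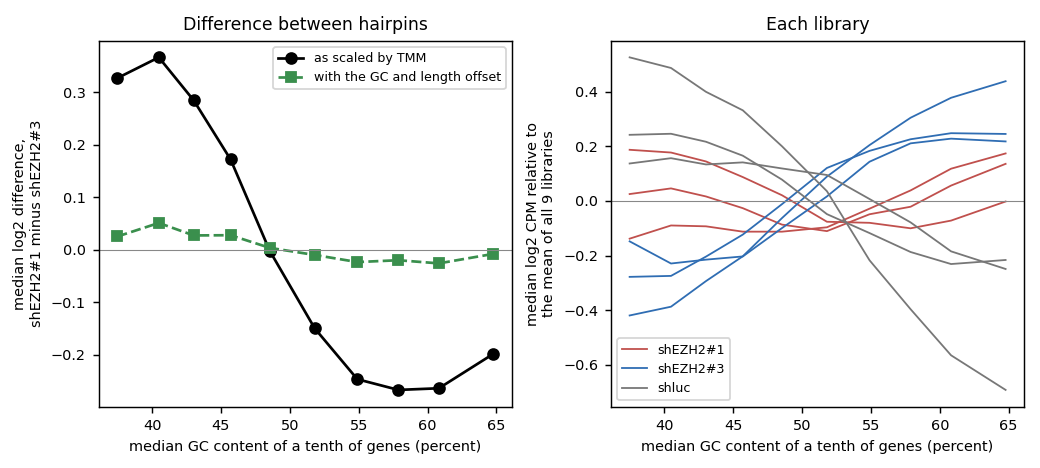
Left, median log2 difference between the hairpins in 10 equal bins of genes ordered by GC content (horizontal axis, percent), before and with the GC and length offset. Right, the median log2 CPM of the same bins in each library relative to the mean of all 9; the shEZH2#3 libraries rise with GC content (rank correlation 0.37 to 0.64) and the shluc libraries fall (-0.69 to -0.39).

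Scaling and single libraries moved the counts. Upper quartile scaling raised the median difference of all genes from 0.01 to 0.18 and turned the split from 37.9% to 61.1% higher calls (2207 higher, 1404 lower), so directions of mild differences are relative to TMM. It also turned the medians of gene lists described below from negative to positive, to 0.07 for MHC class I presentation, 0.01 for sterol and fatty acid synthesis, 0.04 for the extracellular matrix, 0.13 for the contractile cytoskeleton, 0.09 for the long RNAs, and 0.15, 0.16 and 0.16 for the endoplasmic reticulum stress, squamous and Polycomb lists. The medians of these last lists and of the contractile, p53 and translocon lists, all close to 0, changed sign under other settings as well. The count fell to 1956 (636 higher, 1320 lower) without shEZH2#1 replicate 1, and the higher calls to 778 without shEZH2#1 replicate 2 and 783 without shEZH2#3 replicate 2.

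The 13 mRNAs encoded by mitochondrial DNA, which code for subunits of the respiratory complexes and ATP synthase, were all lower with shEZH2#1 (13 of 13 called, median -2.28, and -2.41 with the offset). They took 1.47 to 1.73% of counts with shEZH2#1, 5.22 to 7.31% with shEZH2#3 and 3.19 to 4.12% in shluc. The control libraries thus lay between the hairpins, and no library of one group entered the range of another (exact permutation p = 0.1 between the hairpins).

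MT-CO1, a catalytic subunit of cytochrome c oxidase, was at 4939, 4365 and 4897 CPM with shEZH2#1, 18895, 17524 and 16605 with shEZH2#3 and 8825, 9959.9 and 8322 in shluc. Every shEZH2#3 library was above every control, and every shEZH2#1 library below (log2 difference -1.90 ± 0.16, adjusted p = 1.62e-07). MT-ND1, a subunit of complex I, was at 1457, 1311 and 1495 CPM with shEZH2#1, 14637, 8414 and 7072 with shEZH2#3 and 2521, 2840.2 and 2453 in shluc (log2 difference -2.82 ± 0.22, adjusted p = 7.8e-08). The 9 libraries again fell into 3 separate levels, with shEZH2#3 replicate 1 highest. MT-CYB, of complex III, had -2.44 ± 0.20, and MT-ND2, MT-ND4, MT-CO2 and MT-CO3 had -2.35, -2.18, -1.75 and -1.96.

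The short mRNAs MT-ND4L, MT-ATP8 and MT-ND3 stood apart. MT-ND4L, a small complex I subunit, was at 61.5, 40 and 51.7 CPM with shEZH2#1, 1316, 201 and 193 with shEZH2#3 and 95.5, 73.1 and 75.4 in shluc (log2 difference -3.48 ± 0.51, adjusted p = 5.66e-05). The high mean came mainly from shEZH2#3 replicate 1, and without it the log2 difference was -1.95. Likewise MT-ATP8, of ATP synthase, went from -3.26 to -1.65 and MT-ND3 from -2.54 to -1.02 without that library. MT-ND4L and MT-ATP8 share exon sequence with MT-ND4 and MT-ATP6, so their counts are uncertain.

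**Figure D3:**
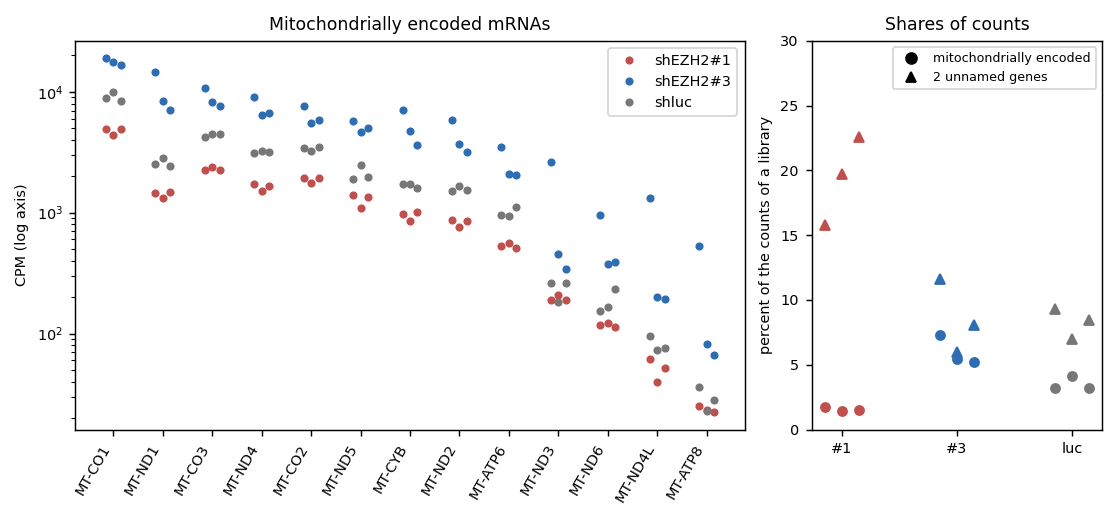
Left, CPM (log axis) of the 13 mitochondrially encoded mRNAs in each of the 9 libraries, 3 points per group in replicate order. Right, the percent of each library's counts taken by these genes (circles) and by the 2 unnamed genes (triangles); the hairpin groups do not overlap in either share.

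Nuclear genes of the same complexes did not share that size of difference. Of 63 nuclear-encoded respiratory chain genes, 7 were called lower and 2 higher, with a median of -0.17 (11 lower and 4 higher with the offset), and without shEZH2#3 replicate 1 the median was 0.06, with 2 called lower. The called share was 14.3%, beside 25% of all tested genes. The higher calls numbered 1 without any 1 of the 6 hairpin libraries and 6 with upper quartile scaling. The lower calls were 4, 3 and 3 without shEZH2#1 replicates 1, 2 and 3, 11 and 12 without shEZH2#3 replicates 2 and 3, 4 without shluc replicate 1 and 3 with upper quartile scaling, 4 with DESeq2 or limma-voom and 12 with no expression filter. NDUFA10, a complex I subunit, was at 38.9, 47.1 and 37.5 CPM with shEZH2#1, 71.5, 78.6 and 72 with shEZH2#3 and 58.3, 50.5 and 51.7 in shluc (log2 difference -0.85 ± 0.15, adjusted p = 0.000316), with no overlap. NDUFA3, ATP5MC2 and NDUFS5 were called lower, at -1.25, -0.81 and -0.73, and had -0.11, -0.47 and -0.29 without shEZH2#3 replicate 1, with no call.

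Among cytosolic ribosomal protein genes the same library stood out. Of 77 tested, 14 were called lower with shEZH2#1 and none higher, with a median of -0.40 (28 lower with the offset). That share, 18.2%, was near the 15.5% called lower of all tested genes. RPL38, of the large ribosomal subunit, was at 59.5, 59.1 and 50.2 CPM with shEZH2#1, 307, 68.2 and 70.2 with shEZH2#3 and 59.1, 36.3 and 78.1 in shluc (log2 difference -1.40 ± 0.40, adjusted p = 0.0144). A single shEZH2#3 library, replicate 1, was high, and without it RPL38, RPL39 and RPL37A had -0.30, -0.14 and -0.20, none called. The list then held 1 call and a median of -0.10. It also held 3, 2 and 1 calls without shEZH2#1 replicates 1, 2 and 3, 23 and 22 without shEZH2#3 replicates 2 and 3, and 6 without shluc replicate 1. Upper quartile scaling gave 2, DESeq2 6, limma-voom 7 and no expression filter 31.

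The nuclear protein-coding genes furthest below shEZH2#3 in the shEZH2#1 libraries had varied roles. The naming rule, which takes the largest differences among well expressed genes, gave MUC1, EGR1, RAB26, CNGB1, GPR37L1 and EFNA3 beside mitochondrial genes; CASP9, SGK1, BCORL1, PCDH12, CDH5 and ALPI were next in that order and were chosen after their values were seen. MUC1 (ENSG00000185499, chromosome 1, 155185824 to 155192916), the transmembrane mucin of epithelial surfaces, was at 87.2, 109 and 99 CPM with shEZH2#1, 947, 603 and 521 with shEZH2#3 and 243, 233 and 275 in shluc. All shEZH2#1 libraries lay below the controls and all shEZH2#3 libraries above (log2 difference -2.81 ± 0.20, adjusted p = 4.76e-08). CASP9 (ENSG00000132906, chromosome 1, 15490832 to 15526534), the initiator caspase of the mitochondrial death pathway, was at 50.6, 48.8 and 58.7 CPM with shEZH2#1, 207, 246 and 271 with shEZH2#3 and 109, 79.9 and 94.1 in shluc. Its libraries fell into the same 3 levels without overlap (log2 difference -2.20 ± 0.17, adjusted p = 5.5e-08). SGK1 (ENSG00000118515, chromosome 6, 134169246 to 134318112), a serum- and glucocorticoid-induced kinase, was at 17.7, 17.3 and 17.8 CPM with shEZH2#1, 64.4, 77.6 and 77.4 with shEZH2#3 and 37.3, 43.5 and 36.2 in shluc. Here too shluc lay between the hairpins (log2 difference -2.06 ± 0.15, adjusted p = 4.76e-08).

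EFNA3, ALPI, GPR37L1 and PCDH12 were high with shEZH2#3, while shEZH2#1 did not pass the test against shluc. EFNA3, a ligand of Eph receptors, was at 11.4, 11.5 and 11.3 CPM with shEZH2#1, 64.2, 50.6 and 53.3 with shEZH2#3 and 11.4, 11.9 and 13.3 in shluc. Its shEZH2#1 and shluc libraries overlapped, while every shEZH2#3 library was above both (log2 difference -2.30 ± 0.16, adjusted p = 4.76e-08). ALPI, an alkaline phosphatase, was at 38.1, 39 and 42.1 CPM with shEZH2#1, 135, 162 and 164 with shEZH2#3 and 49.2, 44.8 and 54 in shluc (log2 difference -1.95 ± 0.15, adjusted p = 5.5e-08), with shEZH2#1 just under the control range. GPR37L1, an orphan receptor, and PCDH12, a protocadherin, had -2.40 ± 0.26 and -1.99 ± 0.26. RAB26, a vesicle GTPase, CNGB1, a cyclic nucleotide-gated channel subunit, and BCORL1, a transcriptional corepressor, had -2.49 ± 0.21, -2.48 ± 0.18 and -2.02 ± 0.21, with shluc between the hairpins. MUC1 and EFNA3 share exon bases with another gene on the same strand, and CASP9, GPR37L1 and PCDH12 with one on the opposite strand, so their counts are uncertain to that extent. These 12 nuclear genes kept their call in each of the 22 alternatives run, the null fold of 2 included.

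**Figure D4:**
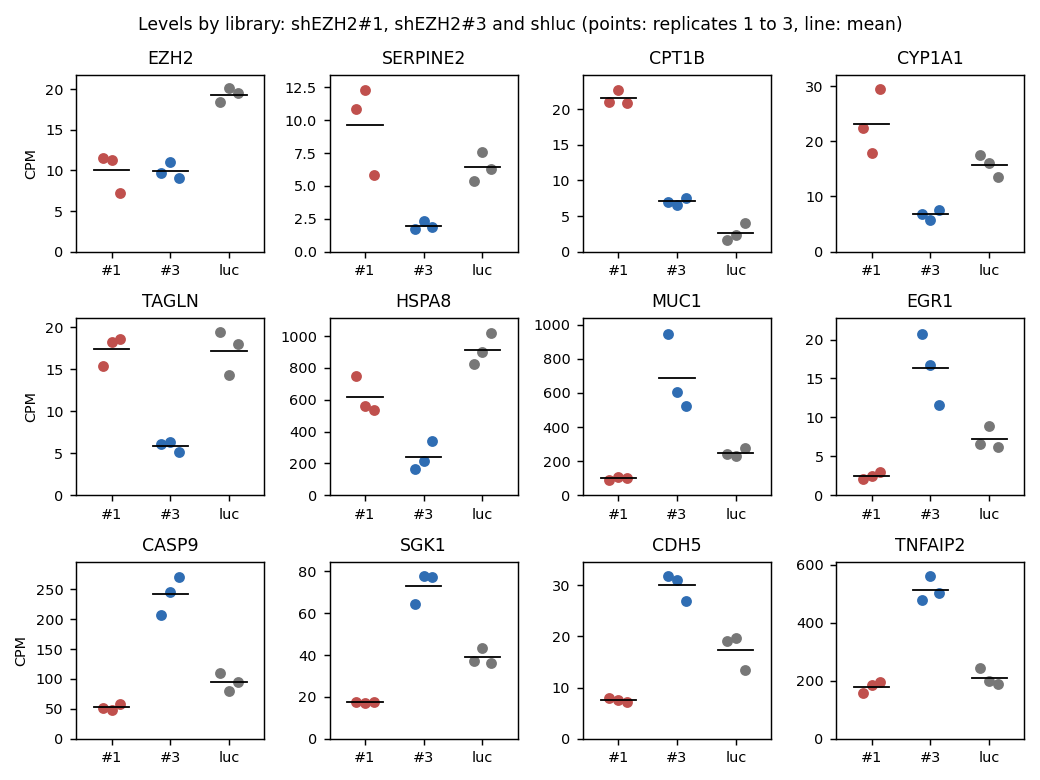
CPM (vertical axes from 0) of 12 genes in the shEZH2#1 (#1), shEZH2#3 (#3) and shluc (luc) libraries; points are replicates 1 to 3 from left to right and lines are means. EZH2 overlaps between the hairpins, CPT1B and SERPINE2 are higher with shEZH2#1, and MUC1, EGR1, CASP9, SGK1 and CDH5 have shluc between the hairpins.

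The genes highest with shEZH2#1 relative to shEZH2#3 had varied roles. SERPINE2 (ENSG00000135919, chromosome 2, 223975112 to 224039319), a secreted protease inhibitor, was at 10.9, 12.3 and 5.8 CPM with shEZH2#1, 1.71, 2.37 and 1.88 with shEZH2#3 and 5.39, 7.57 and 6.32 in shluc. All shEZH2#3 libraries were below the controls, and the shEZH2#1 libraries overlapped them (log2 difference 2.29 ± 0.27, adjusted p = 8.33e-06). CPT1B (ENSG00000205560, chromosome 22, 50568861 to 50578465), the muscle-type carnitine palmitoyltransferase that admits fatty acids to mitochondria, was at 21, 22.6 and 20.9 CPM with shEZH2#1, 7.03, 6.6 and 7.56 with shEZH2#3 and 1.66, 2.35 and 4.07 in shluc. Both hairpins lay above the controls, and shEZH2#1 above shEZH2#3 without overlap (log2 difference 1.60 ± 0.22, adjusted p = 3.58e-05). CYP1A1 (ENSG00000140465, chromosome 15, 74719542 to 74725610), a cytochrome P450 induced through the aryl hydrocarbon receptor, was at 22.4, 17.8 and 29.4 CPM with shEZH2#1, 6.92, 5.73 and 7.56 with shEZH2#3 and 17.4, 16.1 and 13.6 in shluc. shEZH2#3 was lowest and shEZH2#1 highest, with shluc between (log2 difference 1.78 ± 0.20, adjusted p = 4.16e-06).

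TAGLN, an actin-binding protein of contractile cells, was at 15.4, 18.2 and 18.6 CPM with shEZH2#1, 6.12, 6.29 and 5.13 with shEZH2#3 and 19.4, 14.3 and 18 in shluc. The shEZH2#1 libraries overlapped the controls, and shEZH2#3 lay far below (log2 difference 1.57 ± 0.18, adjusted p = 5.41e-06). AKR1C1, an aldo-keto reductase, was at 15.2, 16.8 and 14.5 CPM with shEZH2#1, 3.49, 4.3 and 6.96 with shEZH2#3 and 5.66, 4.22 and 5.36 in shluc. There shEZH2#3 overlapped shluc, and shEZH2#1 was above both (log2 difference 1.65 ± 0.23, adjusted p = 3.12e-05). INO80, the ATPase of a chromatin remodelling complex, had 1.64 ± 0.20, VIPR1, a receptor for vasoactive intestinal peptide, had 1.70 ± 0.19, and CPLANE1, a ciliogenesis protein, had 1.60 ± 0.23. The read-through genes CHKB-CPT1B (2.26 ± 0.42) and RTEL1-TNFRSF6B (1.59 ± 0.18), and PLA2G4B (1.56 ± 0.27) and NPIPB3 (1.54 ± 0.28), share exons with a neighbour or a near-identical copy, as CPT1B does with its read-through, so the counts may be split between them. Of these 12, SERPINE2, CYP1A1 and VIPR1 were still called against a fold of 2.

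**Figure D5:**
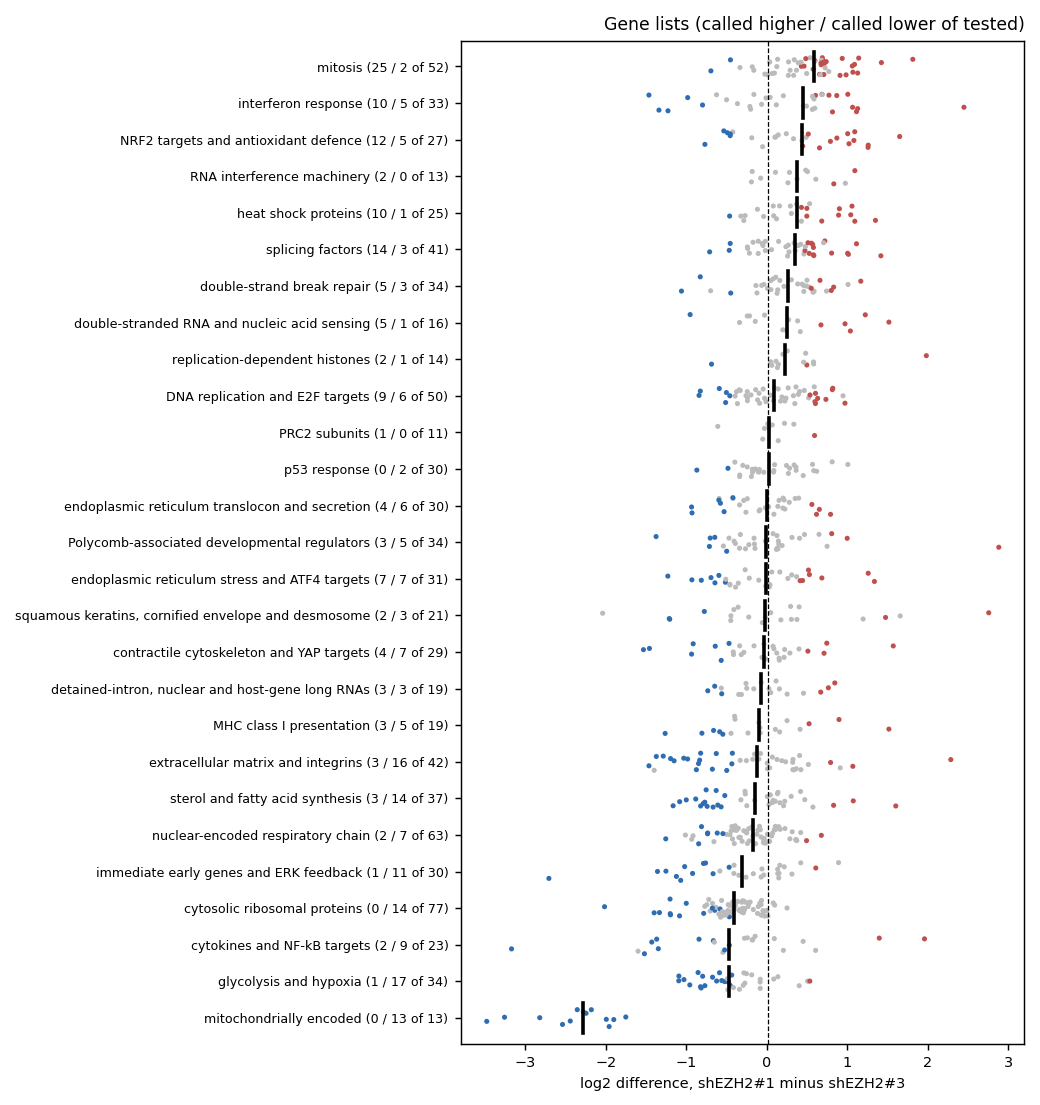
Log2 difference between the hairpins (horizontal axis) for the tested members of each gene list with at least 10 tested members; red points were called higher, blue lower and grey not called, thick bars are medians and the dashed line is the median of all genes. Mitochondrially encoded genes lie apart at the bottom, and mitosis genes have the highest median, 0.59.

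Beside the 25% called of all tested genes, the called shares among lists with at least 10 tested members were highest, after the mitochondrially encoded genes, for NRF2 targets (63%), glycolysis and hypoxia (52.9%) and mitosis (51.9%). The squamous (23.8%), double-strand break repair (23.5%), Polycomb developmental (23.5%) and histone (21.4%) lists were near that background and the p53 response (6.67%) below it. Shares of the other lists of that size described below ran from 30% (DNA replication) to 47.8% (cytokines and NF-kB targets). Nothing is read about a list from a share near the background. Levels were unlike, with a median CPM over the 6 hairpin libraries of 54.7 for NRF2 targets, 111 for glycolysis and hypoxia and 15.4 for mitosis. For all tested genes that median was 9.26. With a stricter expression filter, 33.6% of the genes kept were called.

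Immediate early genes, which growth factor signals switch on within minutes through ERK and serum response factor, were called lower with shEZH2#1 more often than higher. Of 30 tested, 11 were called lower and 1 higher, with a median of -0.30 (12 and 4 with the offset, median -0.17). No member was called higher without shEZH2#1 replicate 1 or 2. EGR1 (ENSG00000120738, chromosome 5, 138465490 to 138469315), a zinc finger transcription factor of this class, was at 2.12, 2.47 and 2.94 CPM with shEZH2#1, 20.7, 16.8 and 11.5 with shEZH2#3 and 6.54, 8.93 and 6.18 in shluc. The 9 libraries fell into 3 levels with shluc in the middle (log2 difference -2.71 ± 0.25, adjusted p = 3.34e-07). Its upstream region is shown because EGR1 had the largest difference of the list: 250 bases before the start site (chr5:138465229-138465478, GRCh38.p14, plus strand, from RefSeq, written in the direction of transcription as are those below), with 2 CArG boxes, the element bound by serum response factor, in capitals, starting 105 and 83 bases upstream.
EGR1: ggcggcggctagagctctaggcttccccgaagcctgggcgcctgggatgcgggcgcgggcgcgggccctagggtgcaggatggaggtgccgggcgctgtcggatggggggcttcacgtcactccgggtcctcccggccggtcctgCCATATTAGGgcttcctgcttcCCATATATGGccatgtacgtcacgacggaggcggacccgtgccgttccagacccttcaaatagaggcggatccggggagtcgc
The CArG box was searched on both strands. It was in 1.16% of 35116 promoters of this length. Counted by gene, it was in 1.41% of 9973 matched tested genes and in 1 of 21 matched genes of the list, EGR1 itself.

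DUSP1, a phosphatase that turns off MAP kinases, was at 110.1, 94.9 and 110.5 CPM with shEZH2#1, 267, 235 and 249.6 with shEZH2#3 and 199, 182 and 173 in shluc. Again the control lay between the hairpins (log2 difference -1.25 ± 0.15, adjusted p = 6.36e-06). MYC, a growth-promoting transcription factor, was at 29.6, 29.4 and 26.5 CPM with shEZH2#1, 52.4, 66.4 and 67.6 with shEZH2#3 and 37.9, 47.4 and 32.9 in shluc; shEZH2#1 was below all controls and shEZH2#3 above (log2 difference -1.12 ± 0.16, adjusted p = 6.04e-05). CCN1, a secreted matrix-associated protein, had -1.36 ± 0.14, and FOS, which pairs with JUN family members in AP-1, was at 4.45 against 9.01 CPM (-1.02 ± 0.21). The ERK phosphatases DUSP5 and DUSP6 had -0.92 and -0.79. KLF10, a TGF-beta-induced factor, was the member called higher (0.61 ± 0.18).

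NF-kB targets and cytokines were lower with shEZH2#1 in 9 of 23 tested genes and higher in 2, with a median of -0.46 (10 and 2 with the offset), and 1 was higher without shEZH2#1 replicate 3. TNFAIP2, induced by TNF, was at 156, 186 and 196 CPM with shEZH2#1, 479, 561 and 503 with shEZH2#3 and 243, 199 and 189 in shluc. The shEZH2#3 libraries were high, while shEZH2#1 and shluc lay close together (log2 difference -1.52 ± 0.16, adjusted p = 2.17e-06). ICAM1, an adhesion receptor for leukocytes, was at 74.8, 82.4 and 85.4 CPM with shEZH2#1, 232, 219 and 175 with shEZH2#3 and 109.9, 95.5 and 91 in shluc; shEZH2#3 was highest and shEZH2#1 lowest (log2 difference -1.37 ± 0.15, adjusted p = 4.53e-06). TNFAIP3, an inhibitor of NF-kB signalling, was at 3.99, 5.43 and 3.97 CPM with shEZH2#1, 11.3, 13.1 and 11.8 with shEZH2#3 and 7.69, 11.1 and 8.62 in shluc. It had the same order without overlap (log2 difference -1.43 ± 0.20, adjusted p = 4.56e-05). IL18, a cytokine released through the inflammasome, was at 22.2, 19.8 and 14.2 CPM with shEZH2#1, 8.46, 7.35 and 5.52 with shEZH2#3 and 11, 12.8 and 13.9 in shluc. Its order was the reverse, with shEZH2#1 highest (log2 difference 1.40 ± 0.20, adjusted p = 5.27e-05). TNF itself was low, at 0.199 against 1.81 CPM, with -3.17 ± 0.57, and NFKB2 and NFKBIA had -1.35 and -0.66.

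Interferon-stimulated genes split. Of 33 tested, 10 were called higher and 5 lower with shEZH2#1, with a median of 0.46 (11 and 5 with the offset, median 0.35). The higher calls numbered 6 without shEZH2#1 replicate 1 or shEZH2#3 replicate 2. IRF9, the DNA-binding subunit of the interferon-activated ISGF3 complex, was at 30.6, 22.1 and 30.2 CPM with shEZH2#1, 13.3, 12 and 15.9 with shEZH2#3 and 10.3, 7.65 and 9.82 in shluc. Its shEZH2#1 libraries were above all others (log2 difference 1.01 ± 0.18, adjusted p = 0.000433); its exons overlap another annotated gene. STAT2, another ISGF3 subunit, differed in the other direction, at 18.3, 23 and 20.4 CPM with shEZH2#1, 49.6, 52 and 42.8 with shEZH2#3 and 22.6, 21.9 and 16.2 in shluc. Here shEZH2#1 overlapped the controls and shEZH2#3 was high (log2 difference -1.23 ± 0.17, adjusted p = 2.95e-05). IFITM1, a membrane protein that restricts viral entry, had -1.46 ± 0.19, with IFITM2 at -0.98 and IFITM3 at -0.80; these near-identical copies may exchange reads. LGALS3BP, a secreted glycoprotein, had -1.34 ± 0.16. IFIT1, IFIT2 and IFIT3, which bind foreign RNA, had 0.87, 1.12 and 0.82, ISG15, a ubiquitin-like modifier, had 0.61, and IFI27, at 7.15 against 1.28 CPM, had 2.45.

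Sensors of nucleic acids were called higher in 5 of 16 genes and lower in 1, 37.5% in all beside 25% of all tested genes. Their median was 0.26. With the offset 4 were called higher and 1 lower, and the median was 0.06. The higher calls numbered 3, 2, 3 and 3 without shEZH2#1 replicates 1 and 2 and shEZH2#3 replicates 1 and 2, and 2 were lower without shluc replicate 2. OASL, of the oligoadenylate synthetase family, was at 120.4, 108 and 141 CPM with shEZH2#1, 54, 57.2 and 76.5 with shEZH2#3 and 77.7, 64.8 and 67.1 in shluc. Its shEZH2#1 libraries were above all others, and shEZH2#3 overlapped shluc (log2 difference 0.97 ± 0.16, adjusted p = 0.000234). IRF7, which drives type I interferon genes, was at 11.4, 13.2 and 10.9 CPM with shEZH2#1, 5.14, 6.48 and 5.63 with shEZH2#3 and 4.7, 4.22 and 4.07 in shluc (log2 difference 1.04 ± 0.19, adjusted p = 0.000455), and DHX58, a regulator of RNA sensing, had 0.67 ± 0.19, a call lost without shEZH2#1 replicate 2 or 3 or shEZH2#3 replicate 2. CGAS, the DNA sensor, and OAS2, which makes the activator of RNase L, were low at 3.33 against 1.43 CPM and 1.71 against 0.589 CPM and had 1.23 and 1.52. STING1, the adaptor downstream of CGAS, was the lower one, at 41, 43.1 and 46.3 CPM with shEZH2#1, 84, 87.5 and 80.5 with shEZH2#3 and 54.7, 45.2 and 47.6 in shluc. Its shEZH2#3 libraries stood apart above the rest (log2 difference -0.95 ± 0.14, adjusted p = 7.24e-05).

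MHC class I presentation genes were called lower in 5 of 19 and higher in 3, with a median of -0.10 (6 and 3 with the offset), and 8 were lower without shluc replicate 2 or in a fit of the 6 hairpin libraries alone. The higher calls numbered 1 without shEZH2#1 replicate 1 or 2 or any 1 of the shEZH2#3 replicates, and 5 with upper quartile scaling. NLRC5, the transactivator of class I genes, was at 145, 124 and 145 CPM with shEZH2#1, 64.8, 83.5 and 73.6 with shEZH2#3 and 56.7, 48.9 and 50.2 in shluc; shEZH2#1 was highest (log2 difference 0.90 ± 0.15, adjusted p = 0.000196). TAPBP, which bridges class I molecules to the peptide transporter, was at 71.5, 85.4 and 87.4 CPM with shEZH2#1, 197, 215 and 174 with shEZH2#3 and 117, 106 and 103 in shluc. Its hairpin groups stood the other way, with shEZH2#3 highest (log2 difference -1.26 ± 0.15, adjusted p = 7.77e-06). TAP1, a subunit of that transporter, had -0.81 ± 0.17, and HLA-B had -0.66 ± 0.16, with exon overlap and near-identical copies that make the HLA genes uncertain.

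Many mitosis genes were higher with shEZH2#1 than with shEZH2#3. Of 52 tested, 25 were called higher and 2 lower, with a median of 0.59 (22 and 1 with the offset, median 0.39). The median against shluc was -0.49 with shEZH2#1 and -1.15 with shEZH2#3. BUB1B, a spindle checkpoint kinase, was at 15.9, 15.5 and 13.4 CPM with shEZH2#1, 6.29, 7.35 and 6.68 with shEZH2#3 and 16.2, 23.6 and 18.3 in shluc. All shEZH2#3 libraries were below the others, and shEZH2#1 lay just under the control range (log2 difference 1.14 ± 0.18, adjusted p = 0.000134); BUB1B shares exons with a read-through gene. KIF4A, a chromosome-arm kinesin, was at 25.8, 24.7 and 23.2 CPM with shEZH2#1, 8.8, 11.5 and 14.3 with shEZH2#3 and 24.3, 29 and 21.4 in shluc, with shEZH2#1 and shluc overlapping (log2 difference 1.09 ± 0.18, adjusted p = 0.000236). Higher calls numbered 13 and 16 without shEZH2#1 replicates 1 and 2 and 16 without shEZH2#3 replicate 2. The lower calls numbered 1 with upper quartile scaling and without any 1 of shEZH2#1 replicates 1, 2 or 3 or shEZH2#3 replicates 2 or 3.

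TOP2A, the topoisomerase that untangles mitotic chromosomes, was at 21.1, 20 and 17.5 CPM with shEZH2#1, 9.66, 7.04 and 11.2 with shEZH2#3 and 23.4, 32.4 and 26.5 in shluc (log2 difference 1.07 ± 0.19, adjusted p = 0.000356), and KIF23, a kinesin of cytokinesis, at 15.8, 13.5 and 13.1 CPM with shEZH2#1, 8.46, 4.05 and 6.79 with shEZH2#3 and 12.9, 18 and 16.6 in shluc (log2 difference 1.13 ± 0.22, adjusted p = 0.00095). In both, every shEZH2#3 library was below every other library. The kinetochore genes SPC25 and NUF2 had 1.82 and 1.43, the cyclins CCNB1, CCNB2 and CCNA2 had 0.66, 0.70 and 0.69, and CDK1 had 0.69. The 2 called lower were FOXM1, a transcription factor of mitotic genes (-0.45), and the condensin subunit NCAPD2 (-0.69). Many mitotic promoters carry TTTGAA, the core of the cell cycle genes homology region read by the DREAM and MuvB complexes. The 250 bases upstream of TOP2A (chr17:40417897-40418146, minus strand) and KIF23 (chr15:69414099-69414348, plus strand) are shown as members with it, in RefSeq sequence of GRCh38.p14 with TTTGAA or its reverse complement in capitals, starting 194 and 151 bases upstream in TOP2A and 55 in KIF23.
TOP2A: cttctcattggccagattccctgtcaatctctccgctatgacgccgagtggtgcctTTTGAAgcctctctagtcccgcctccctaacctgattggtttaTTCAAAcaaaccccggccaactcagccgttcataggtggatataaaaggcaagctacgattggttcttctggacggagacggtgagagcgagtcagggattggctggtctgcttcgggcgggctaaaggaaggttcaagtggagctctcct
KIF23: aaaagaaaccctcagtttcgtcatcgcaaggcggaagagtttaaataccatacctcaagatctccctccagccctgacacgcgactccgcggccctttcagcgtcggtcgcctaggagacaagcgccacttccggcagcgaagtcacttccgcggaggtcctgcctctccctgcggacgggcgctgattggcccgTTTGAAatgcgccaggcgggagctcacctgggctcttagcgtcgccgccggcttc
TTTGAA on either strand was in 13.3% of the 35116 promoters of this length. Counted by gene, it was in 11.5% of 9973 matched tested genes and in 24 of 45 matched mitosis genes. It was in 15 of 24 matched members that were called and in 9 of 21 that were not, so the motif was present in both.

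DNA replication genes were called in both directions, 9 of 50 higher and 6 lower (30% in all, beside 25% of all tested genes). The median was 0.09 (7 higher and 6 lower with the offset). CDC6, which loads the replicative helicase, was at 27.9, 27.6 and 22.9 CPM with shEZH2#1, 11.7, 15.5 and 17.2 with shEZH2#3 and 22.3, 28.9 and 27.2 in shluc; shEZH2#3 was below the rest (log2 difference 0.82 ± 0.17, adjusted p = 0.00187). CDT1, its partner in loading, was at 197, 237 and 245 CPM with shEZH2#1, 399, 459 and 345 with shEZH2#3 and 178, 133 and 181 in shluc. There shEZH2#3 was above the rest (log2 difference -0.83 ± 0.17, adjusted p = 0.00127). POLD1, catalytic subunit of DNA polymerase delta, and PRIM2, of primase, had -0.84 ± 0.17 and 0.82 ± 0.20. The higher calls were 16 with upper quartile scaling, 3 and 4 without shEZH2#1 replicates 1 and 2 and 5 without shEZH2#3 replicate 1, and the lower calls 2 to 3 with upper quartile scaling or without those shEZH2#1 libraries or shEZH2#3 replicates 2 or 3.

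Double-strand break repair genes were called higher in 5 of 34 and lower in 3 (23.5% in all, beside 25% of all tested genes), with a median of 0.26 (5 and 2 with the offset, median 0.08). MDC1, a scaffold at broken DNA, was at 57.2, 54.5 and 55.3 CPM with shEZH2#1, 121, 118 and 109 with shEZH2#3 and 95.2, 93.1 and 70.2 in shluc. Its libraries were lowest with shEZH2#1 and highest with shEZH2#3 (log2 difference -1.06 ± 0.15, adjusted p = 4.34e-05). FANCD2 and FANCI, the paired Fanconi anemia proteins, had 0.83 ± 0.19 and 0.66 ± 0.17, and RAD54L, a recombination ATPase, had -0.83 ± 0.17. Higher calls were 9 with upper quartile scaling, 8 with a stricter filter and 3 without shEZH2#1 replicate 1 or shEZH2#3 replicate 3. In the p53 response list of 30 genes none was called higher and 2 lower, PLK2 (-0.87 ± 0.18) and PLK3 (-0.48 ± 0.17), both Polo-like kinases, and the median was 0.02 (5 higher and 2 lower with the offset). The call of PLK3 was lost with most alternatives.

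Heat shock protein genes were higher with shEZH2#1 than with shEZH2#3 in 10 of 25 and lower in 1, with a median of 0.37 (11 and 0 with the offset, median 0.27), and 6 were higher without shEZH2#1 replicate 2. None was called lower with RLE or upper quartile scaling, or without shEZH2#1 replicates 1 or 2 or shEZH2#3 replicates 2 or 3. HSPA8, the constitutive cytosolic HSP70, was at 751, 561 and 539 CPM with shEZH2#1, 166, 216 and 343 with shEZH2#3 and 826, 901 and 1018 in shluc. shEZH2#3 was lowest, shEZH2#1 between and shluc highest, with no overlap (log2 difference 1.35 ± 0.22, adjusted p = 0.000145). HSPH1 and HSPA4, nucleotide exchange partners of HSP70, had 1.10 ± 0.17 and 0.90 ± 0.16, and CHORDC1, a cochaperone of HSP90, had 1.06 ± 0.22. HSPB8, a small heat shock protein, was the lower call (-0.46). The upstream 250 bases of HSPA8 (chr11:123062137-123062386, minus strand, GRCh38.p14, RefSeq) are shown as that of the member with the largest difference, with GAANNTTC, a pair of inverted heat shock factor half-sites, in capitals, starting 230 and 50 bases upstream.
HSPA8: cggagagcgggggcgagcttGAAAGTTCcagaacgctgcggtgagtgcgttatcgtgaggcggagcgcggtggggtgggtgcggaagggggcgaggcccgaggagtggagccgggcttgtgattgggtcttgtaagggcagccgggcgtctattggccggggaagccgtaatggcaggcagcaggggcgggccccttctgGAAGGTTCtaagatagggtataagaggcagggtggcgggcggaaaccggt
GAANNTTC, the same on both strands, was in 5.78% of promoters of this length. Counted by gene, it was in 5.51% of 9973 matched tested genes. In the list it was in 12 of 23 matched genes, 6 of 11 called and 6 of 12 not called. In each region printed, only the motif named for it is in capitals. The EGR1 region also holds the reverse complement of TTTGAA, and the TOP2A region a match to GAANNTTC, both left in lower case.

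Splicing factor genes were called higher in 14 of 41 and lower in 3, with a median of 0.35 (10 and 5 with the offset, median 0.17), and had 24 higher calls with upper quartile scaling, 9 without shEZH2#1 replicate 1 and 8 without shEZH2#1 replicate 2. The lower calls numbered 1 with upper quartile scaling and without any 1 of shEZH2#1 replicates 1, 2 or 3 or shEZH2#3 replicate 3. RBM39, an RNA-binding coactivator and splicing factor, was at 43.6, 43.7 and 37.7 CPM with shEZH2#1, 19.7, 23.2 and 19.5 with shEZH2#3 and 34.2, 47.4 and 39.1 in shluc. Its shEZH2#1 libraries overlapped the controls, and shEZH2#3 lay below both (log2 difference 1.01 ± 0.16, adjusted p = 0.000141). RBM25, LUC7L and TRA2A had 1.12 ± 0.20, 1.02 ± 0.20 and 0.81 ± 0.17. Among long RNAs and host genes, 3 of 19 were called higher and 3 lower, 31.6% in all beside 25% of all tested genes. With the offset, 1 was called higher and 6 lower. Their median was -0.07, and 1 was called higher without shEZH2#1 replicate 1 or shEZH2#3 replicate 2. The median was 0.03 without shEZH2#1 replicate 3 and 0.13 without shEZH2#3 replicate 1. The H19 transcript was at 2691, 3264 and 3318 CPM with shEZH2#1, 6034, 5088 and 4284 with shEZH2#3 and 3412, 2819.7 and 3237 in shluc (log2 difference -0.73 ± 0.17, adjusted p = 0.00347), SNHG15 had 0.77 ± 0.17, and MALAT1 (0.85 ± 0.26) and EPB41L4A-AS1 (0.67 ± 0.22) lost their calls with the offset.

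Glycolysis and hypoxia genes were lower with shEZH2#1 in 17 of 34 and higher in 1, with a median of -0.47 (18 and 1 with the offset, median -0.34). None was called higher without shEZH2#1 replicate 1 or any 1 of the shEZH2#3 replicates, and 3 were with upper quartile scaling. SLC2A1, the glucose transporter GLUT1, was at 240.3, 218 and 232 CPM with shEZH2#1, 424, 558 and 488 with shEZH2#3 and 324, 327 and 269.5 in shluc. The control lay between the hairpins without overlap (log2 difference -1.09 ± 0.15, adjusted p = 4.52e-05). NDRG1, induced by hypoxia, was at 575, 553 and 587 CPM with shEZH2#1, 1127, 1400.2 and 1131 with shEZH2#3 and 859, 984 and 797 in shluc (log2 difference -1.09 ± 0.16, adjusted p = 4.52e-05). Its shEZH2#1 libraries were below every control and its shEZH2#3 libraries above. HK1, which phosphorylates glucose, and EGLN3, an oxygen sensor for HIF, had -0.96 ± 0.15 and -1.03 ± 0.21. GAPDH, PKM and ALDOA had -0.67, -0.62 and -0.52. HIF1A, the hypoxia factor itself, was the one higher (0.54 ± 0.17).

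Sterol and fatty acid synthesis genes were lower in 14 of 37 and higher in 3, with a median of -0.15 (14 and 6 with the offset, and 6 higher with upper quartile scaling). FASN, fatty acid synthase, was at 525, 597 and 606 CPM with shEZH2#1, 1082, 1491 and 1297 with shEZH2#3 and 673, 549 and 564 in shluc. Its shEZH2#3 libraries were above the rest, and shEZH2#1 overlapped shluc (log2 difference -1.16 ± 0.16, adjusted p = 4.07e-05). SREBF1, the transcription factor of fatty acid synthesis, was at 156, 175 and 186 CPM with shEZH2#1, 286, 416 and 391 with shEZH2#3 and 175, 135 and 150.2 in shluc (log2 difference -1.08 ± 0.17, adjusted p = 0.000105), and DHCR7 and FDPS, of cholesterol synthesis, had -0.82 and -0.77.

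NRF2 targets were called higher in 12 of 27 and lower in 5, with a median of 0.44 (13 and 4 with the offset, median 0.30). GCLM, the modifier of glutathione synthesis, was at 11.8, 9.41 and 8.45 CPM with shEZH2#1, 4.57, 3.86 and 3.97 with shEZH2#3 and 6.08, 9.36 and 7.42 in shluc. Its shEZH2#3 libraries were lowest (log2 difference 1.26 ± 0.21, adjusted p = 0.000268). AKR1C2, a relative of AKR1C1 with near-identical sequence, had 1.09 ± 0.18, so both are uncertain, and UGDH, of glucuronide synthesis, had 1.08 ± 0.18. The lower members were FTH1, TALDO1, TKT, PGD and ABCC3, between -0.77 and -0.45, and they numbered 2 with upper quartile scaling or without any 1 of shEZH2#1 replicates 1, 2 or 3 or shEZH2#3 replicate 2, and 1 without shEZH2#3 replicate 3.

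Endoplasmic reticulum genes had no common direction. In the stress and ATF4 list 7 of 31 were called higher and 7 lower, with a median of -0.01 (5 and 7 with the offset); the higher calls were 3 without shEZH2#1 replicate 1 or 2 or shEZH2#3 replicate 2 or 3. SLC7A5, a carrier of large neutral amino acids, was at 1721, 1925 and 2151 CPM with shEZH2#1, 4173, 4879 and 4534 with shEZH2#3 and 2607, 2047 and 2147 in shluc. The shEZH2#3 libraries were high and the others overlapped (log2 difference -1.23 ± 0.16, adjusted p = 2.32e-05). Its partner SLC3A2 had -0.69 ± 0.15, and SYVN1, a ligase of misfolded proteins whose exons overlap those of FAU, had -0.93 ± 0.15. ATF4, the transcription factor of the response, had -0.81 ± 0.21, and -0.42, not called, without shEZH2#3 replicate 1. The chaperones HSPA5 and HSP90B1 were higher (0.69 and 0.45). In the translocon list 4 of 30 were higher and 6 lower, 33.3% in all beside 25% of all tested genes. The median was 0.00 (1 higher and 8 lower with the offset). Lower calls were 2, 3 and 3 without shEZH2#1 replicates 1 and 2 and shEZH2#3 replicate 2, and 3 with upper quartile scaling. The higher calls there numbered 2 without shEZH2#1 replicate 1 or 2 or shEZH2#3 replicate 2 and 1 without shEZH2#3 replicate 3. SSR1, a translocon-associated subunit, was at 29.6, 28.5 and 23 CPM with shEZH2#1, 52.4, 50.7 and 51.4 with shEZH2#3 and 63.5, 80 and 74.1 in shluc, below shluc with both hairpins and lowest with shEZH2#1 (log2 difference -0.93 ± 0.15, adjusted p = 0.000184); it overlaps CAGE1. SRP19 and SRP54 of the signal recognition particle had 0.79 ± 0.19 and 0.65 ± 0.19, the latter call lost with the offset (adjusted p = 0.198). OST4 (-0.93 ± 0.31) had -0.26 without shEZH2#3 replicate 1 and no call.

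Extracellular matrix and integrin genes were lower with shEZH2#1 in 16 of 42 and higher in 3, with a median of -0.12 (13 and 4 with the offset), and 6 were higher with upper quartile scaling, in the 6 hairpin libraries alone or without shluc replicate 2. LAMB2, a laminin chain of basement membranes, was at 169.9, 187 and 206 CPM with shEZH2#1, 449, 566 and 536 with shEZH2#3 and 174, 148 and 163 in shluc. Its shEZH2#3 libraries stood apart above the others (log2 difference -1.46 ± 0.15, adjusted p = 2.4e-06). LOXL2, a collagen cross-linking enzyme, was at 140.5, 138 and 156 CPM with shEZH2#1, 314, 396 and 348 with shEZH2#3 and 209, 231 and 183 in shluc, with the control between the hairpins (log2 difference -1.29 ± 0.15, adjusted p = 8.33e-06). COL4A2, LAMB3 and ITGA5 had -1.19, -1.15 and -0.82, and ITGA6 and MMP7 were higher (0.79 and 1.07), as was SERPINE2.

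Contractile and YAP target genes were called higher in 4 of 29 and lower in 7, with a median of -0.03 (6 and 7 with the offset). The higher calls numbered 2 without shEZH2#1 replicate 1 or 2 or shEZH2#3 replicate 1, and 7 with upper quartile scaling. ACTA2, smooth muscle actin, was at 3.08, 4.77 and 4.19 CPM with shEZH2#1, 11.7, 10.2 and 13 with shEZH2#3 and 2.72, 2.59 and 2.2 in shluc. It was above the controls with both hairpins and highest with shEZH2#3 (log2 difference -1.53 ± 0.21, adjusted p = 4.07e-05), while TAGLN, often measured with it, differed in the other direction between the hairpins. MYH9, nonmuscle myosin, had -0.93 ± 0.16.

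Markers of the labelled cell type were only partly present. KRT5, KRT14, KRT6A, TP63, DSG3 and PKP1, which define squamous epithelium, were at or below 1.03 CPM in every library, whereas KRT8 and KRT18, keratins of simple epithelium, and KRT17 were at 3890.5 to 6995, 2509 to 4847 and 959 to 1572 CPM. Of 21 tested squamous genes, 2 were called higher and 3 lower, with a median of -0.02 (6 and 2 with the offset, median 0.12). That was 23.8% called, beside 25% of all tested genes, and 7 were higher with upper quartile scaling. KRT15, a basal keratin, was at 6.34 against 0.927 CPM and had 2.76. KRT16, a keratin of activated keratinocytes, was at 7.92, 6.82 and 8.89 CPM with shEZH2#1, 2.23, 3.49 and 2.76 with shEZH2#3 and 2.72, 1.79 and 2.92 in shluc; shEZH2#1 was above the rest (log2 difference 1.48 ± 0.25, adjusted p = 0.000269). JUP, plakoglobin of junctions, and PPL, periplakin, had -1.21 ± 0.16 and -0.78 ± 0.17. CDH1, the epithelial cadherin, was at 5.26, 5.43 and 4.99 CPM with shEZH2#1, 2.34, 2.62 and 2.87 with shEZH2#3 and 5.02, 5.34 and 5.17 in shluc. Its shEZH2#3 libraries were below both other groups (log2 difference 1.00 ± 0.22, adjusted p = 0.00251).

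Markers of other cell types also moved between the hairpins, and their part in the results was not tested. The summed CPM of 9 fibroblast markers was 54.4 to 63.3 with shEZH2#1, 79.7 to 118 with shEZH2#3 and 59.6 to 68.3 in shluc, with COL1A2 and PDGFRA at 0 in all libraries and 2 of 5 tested called lower, COL1A1 (-1.37 ± 0.16) and PDGFRB (-0.95 ± 0.27); the call of PDGFRB was lost with the offset. The other tested members, DCN, LUM and COL3A1, were not called and had 0.43, 0.60 and 0.58, and the median of the 5 was 0.43. COL1A1 and DCN made up most of the sum in each library. The median was -0.20 with a stricter filter and -0.23 in the 6 hairpin libraries alone, and 1 member was called lower without shEZH2#1 replicate 2 or shEZH2#3 replicate 2. For 10 leukocyte markers the sums were 18.9 to 23.9, 31.4 to 35 and 21.4 to 25.5, with PTPRC, CD3E, MS4A1 and NKG7 at 0 throughout and 2 of 3 tested called lower, CD68 (-0.53 ± 0.17) among them, with none called with the offset, with upper quartile scaling or without shEZH2#1 replicate 1 or 2, and 1 without shEZH2#3 replicate 2 or 3. For 5 endothelial markers they were 7.97 to 8.28, 28.4 to 32.6 and 13.8 to 19.8, nearly all from CDH5, with KDR and EMCN at 0. CDH5, the cadherin of endothelial junctions, was at 7.92, 7.6 and 7.12 CPM with shEZH2#1, 31.7, 31.1 and 27 with shEZH2#3 and 19.1, 19.6 and 13.4 in shluc (log2 difference -1.99 ± 0.18, adjusted p = 3.34e-07). All 9 libraries are labelled KYSE180, an established line, and the presence of other cells was not measured. Bulk RNA gives the level of these genes and not the cells that hold them.

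Developmental regulators often under Polycomb showed no common direction between the hairpins. Of 34 tested, 3 were called higher and 5 lower (23.5% in all, beside 25% of all tested genes), with a median of -0.01 (5 and 3 with the offset, median 0.04); lower calls were 3 without shEZH2#1 replicate 1 or shEZH2#3 replicate 2 or 3. SIX2, a homeobox factor, was at 39.1, 40.4 and 51.4 CPM with shEZH2#1, 65.2, 80.6 and 68.6 with shEZH2#3 and 40.7, 31.9 and 38.4 in shluc; its shEZH2#3 libraries were above the rest (log2 difference -0.71 ± 0.16, adjusted p = 0.00277). CDKN2B, a CDK inhibitor at the INK4 locus, was at 10.4, 6.82 and 7.64 CPM with shEZH2#1, 4.46, 5.17 and 4.58 with shEZH2#3 and 5.29, 6.93 and 6.37 in shluc (log2 difference 0.81 ± 0.21, adjusted p = 0.00885), a call lost without shEZH2#1 replicate 1. HOXC8, a low homeobox gene (0.77 against 0.0991 CPM), had 2.89, DAB2IP, a Ras GTPase-activating protein, had -0.70 ± 0.16, and RUNX3, a Runt-domain factor, had -0.64 ± 0.17, not called with the offset (-0.36, adjusted p = 0.0975). Replication-dependent histone genes were called higher in 2 of 14 and lower in 1 (21.4% in all, beside 25%), and the selection of polyadenylated RNA limits what these libraries hold of them. H1-2 and H1-5, linker histones, had 0.50 ± 0.16 and 1.98 ± 0.55, the latter at 1.49 against 0.373 CPM, and H2BC21, a histone H2B gene, had -0.69 ± 0.18. The call of H1-2 was lost without shEZH2#1 replicate 1 or 3 or shEZH2#3 replicate 2, and that of H2BC21 with upper quartile scaling and without shEZH2#1 replicate 2 or shEZH2#3 replicate 3.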

How the data were processed

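Polyadenylated RNA of 9 libraries was sequenced from a strand-marking kit, per the labels' protocols. The submitters' processing notes name fastp, HISAT2, StringTie and GRCh38 (hg38); for the counting step, the annotation release, the strand setting and multi-mapping reads, details were not given in the sources used here. Per gene, the table deposited by the authors holds estimated counts that are not all whole, and they were rounded to whole numbers. Genes were matched to GENCODE on GRCh38, and promoter sequences come from RefSeq.

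Genes kept by edgeR's expression filter (13252 of 57905) were fitted with edgeR 4.0.16 in R 4.3.3 (TMM scaling, quasi-likelihood test, all 9 libraries sharing one spread), and the contrast was shEZH2#1 minus shEZH2#3. P-values were adjusted by Benjamini-Hochberg over all tested genes, with a call below 0.05. The standard error is the log2 difference divided by the root of its F statistic. Shares of counts were compared by exact permutation over libraries. The GC and length offset is a lowess smooth (span 0.3) per library. Alternatives were limma-voom (limma 3.58.1), DESeq2 1.42.0, scaling by RLE or upper quartile, other filters, the 6 hairpin libraries alone, a replicate block, a null fold of 2, removal of dominant genes, and leaving out each library. The fits were tested on simulated data.

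Named genes were EZH2, EED and SUZ12; the 12 highest and 12 lowest called protein-coding genes whose mean reached 5 CPM and whose groups did not overlap; the 8 with the largest difference in CPM; up to 4 called members of each gene list; and the 6 per direction that led with the offset. Members of lists named beyond these were chosen after their values were seen. Some genes that the rule or the lists hold are not reported here. The comparison and the gene lists were chosen with earlier results of these data known. Each replicate differed from the others of its group beyond counting noise, with 14.5 to 76.9 as the chi-square divided by its degrees of freedom, and none was merged. One count was worth 0.0398 to 0.0734 CPM, and differences near that level were not resolved. Many named genes, ACTA2, ICAM1, MDC1 and SLC2A1 among them, overlap exons of a gene on the opposite strand, and it is unknown here whether the counting used strand.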

Additional observations from a re-analysis of the deposited data

Results flagged for a closer look

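In 27 of the named genes, both hairpins passed the test against shluc in opposite directions, and the difference between the hairpins was itself tested by edgeR's contrast. The values are shEZH2#1 minus shEZH2#3 on the log2 scale. Both comparisons share the 3 control libraries.

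Lower than shluc with shEZH2#1 and higher with shEZH2#3 were 7 mRNAs of mitochondrial DNA, MT-ND1 (-2.82), MT-CYB (-2.44), MT-ND2 (-2.35), MT-ND4 (-2.18), MT-CO3 (-1.96), MT-CO1 (-1.90) and MT-CO2 (-1.75). The nuclear genes in that order were MUC1 (-2.81), EGR1 (-2.71), RAB26 (-2.49), CNGB1 (-2.48), CASP9 (-2.20), SGK1 (-2.06), BCORL1 (-2.02) and CDH5 (-1.99). Matrix and immediate early genes were COL1A1 (-1.37), CCN1 (-1.36), LOXL2 (-1.29) and DUSP1 (-1.25). The remaining ones were NDRG1 (-1.09), MDC1 (-1.06), HK1 (-0.96) and SYVN1 (-0.93).

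The opposite order, higher than shluc with shEZH2#1 and lower with shEZH2#3, held for CYP1A1 (1.78), VIPR1 (1.70), RTEL1-TNFRSF6B (1.59) and IL18 (1.40). Groups of 3 libraries were too small to test single libraries for standing apart.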

How the results depend on the processing

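Of the 125 called named genes, 24 kept their call and direction in each alternative that held them, which was 22, or 21 for mitochondrial genes, which 1 alternative removes, and 103 kept them whichever single library was left out. Against a null fold of 2, the calls fell to 68 (7 higher, 61 lower). Upper quartile scaling gave 2207 higher calls. Leaving out 1 library gave 1956 to 3940 calls, 636 to 1551 higher and 1320 to 2389 lower. The cause of these shifts was not tested, and a fit without a library also holds fewer of them. EZH2 changed sign, with no call: -0.18 with the GC and length offset, -0.19 with that offset and the replicate block, and -0.076, -0.069 and -0.033 without shEZH2#1 replicate 1, shEZH2#1 replicate 2 and shEZH2#3 replicate 3. Leaving out single libraries gave -0.076 to 0.21 for EZH2. No label says whether same-numbered libraries were prepared together. Between the hairpins, deviations of same-numbered libraries correlated at 0.08, 0.03 and -0.01. The highest correlation was that of shEZH2#1 replicate 3 with shEZH2#3 replicate 2 (0.12). These deviations are centred within small groups, so their correlations cannot decide whether the replicate numbers pair the samples. With the replicate block 2938 genes were called (1107 higher, 1831 lower), and 3784 with the block in the 6 hairpin libraries alone. Depth limits genes of a few CPM, where 1 count is 0.0398 to 0.0734 CPM.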

Other observations

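The genes below were chosen after their values were seen, and their differences are descriptions. The alkaline phosphatases of chromosome 2, near-identical copies that may exchange reads, were lower together with shEZH2#1: ALPP was at 1344, 1509 and 1672 CPM with shEZH2#1, 4532, 5269 and 4648 with shEZH2#3 and 3209, 2802 and 2504 in shluc (-1.67), ALPG had -1.68 and ALPI -1.95. TNF, a cytokine, was close to 1 count in some libraries, at 0.0604, 0.241 and 0.294 CPM with shEZH2#1, 1.6, 1.99 and 1.82 with shEZH2#3 and 0.23, 0.279 and 0.192 in shluc (log2 difference -3.17 ± 0.57, adjusted p = 0.000433), and only shEZH2#3 was clearly above. NR4A1, an immediate early nuclear receptor, had -1.94 ± 0.14. C3, a complement component, MSLN, a surface glycoprotein of mesothelium, and VTN, vitronectin, had -1.78 ± 0.16, -1.87 ± 0.17 and -1.85 ± 0.17. CTH, an enzyme that makes cysteine, had -1.94 ± 0.17. KDM6B, a demethylase of the mark placed by EZH2, had -0.68 ± 0.15.

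Along chromosome 12, a stretch of 20 tested genes (GRCh38, 55829608 to 56229854) had a median of -0.65 with the GC and length offset. In it 14 members were called lower and 1 higher, CDK2, ERBB3, PMEL, DGKA and RPS26 among the lower. Of all tested genes, 15.5% were called lower, and 15.6% with the offset. The stretch was picked for the largest median in size, so its count of calls is high by selection. It was 1 of 7 windows beyond 0.5 in size of 2507 overlapping ones. Several of the 7 cover the same part of chromosome 12, and the rest lie at the start of chromosome 1 and on chromosome 16. Separate regions of this size were therefore fewer than 7, and the copy number of these loci was not measured.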
